A study of Rattus norvegicus with 12 samples.

Results

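The 10 genes described here encode the enzymes and the chaperone that modify, fold and cross-link collagen. They are the lysyl oxidases *Lox*, *Loxl1*, *Loxl2* and *Loxl3*, the lysyl hydroxylases *Plod1*, *Plod2* and *Plod3*, the prolyl 4-hydroxylase alpha subunits *P4ha1* and *P4ha2*, and *Serpinh1*, which encodes the collagen chaperone HSP47. They were chosen by symbol from a table of 12271 genes, and all 10 were present and among the 11871 genes tested. RNA was sequenced from fibroblasts of P2 Sprague Dawley rat ventricles after transfection with negative siRNA, Yap siRNA, Wwtr1 siRNA or Yap+Wwtr1 siRNA, with 3 libraries in each of 4 groups (12 libraries). An siRNA is a short duplex that directs cleavage of transcripts with its sequence, and Yap and Wwtr1 (also named Taz) are transcriptional co-activators of the Hippo pathway. The cells of all groups grew in DMEM with 15% FBS, were transfected after 16 hours with 2 siRNAs per target at 25 nM each, and were collected 48 hours later, as the labels give it. The study's methods state a lower serum level, a longer time before transfection, and a change of medium ahead of a later collection, so the exact conditions are unsettled. The negative siRNA cells received a pair of universal control siRNAs, and whether the total siRNA amount was equalised in the double knockdown is not given in the sources used here. The siRNA label of the double knockdown lists just the Wwtr1 siRNAs, so that group rests on its sample titles, and the series' design text calls the cells myocytes. The study prepared cells from separate litters for its 3 replicates, and every value comes from cells kept in serum, without a heart's load or circulation.

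Collagen chains are hydroxylated and folded in the endoplasmic reticulum before they leave the cell. Prolyl 4-hydroxylase makes the hydroxyprolines that hold the triple helix together at body temperature, lysyl hydroxylases prepare lysines for glycosylation and cross-linking, and HSP47 binds the folded helix. Outside the cell the copper-dependent lysyl oxidases oxidise lysines of collagen and elastin, which starts the cross-links that stiffen a scar, and cardiac fibroblasts are the main source of this matrix in the heart.

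The siRNAs lowered their targets. *Yap1*, the gene for Yap, was at 3042, 3776 and 2984 normalized counts (read counts divided by 1 size factor per library) with negative siRNA. It was at 532, 576 and 625 with Yap siRNA and at 713, 739 and 1474 with both. *Wwtr1* was at 2364, 2565 and 2280 with negative siRNA, at 524, 550 and 637 with Wwtr1 siRNA, and at 818, 731 and 1056 with both. Relative to negative siRNA, *Yap1* differed by -2.49 with Yap siRNA and -1.82 with both on the log2 scale (limma adjusted p = 0.000271 and 0.000107), and *Wwtr1* by -2.08 with Wwtr1 siRNA and -1.48 with both (2.33e-05 and 1.66e-05). The remaining *Wwtr1* level was higher in the double than in the single knockdown by 0.59 on the log2 scale (limma adjusted p = 0.00804). For *Yap1* the same difference was 0.67, without overlap of the libraries, and it did not pass (limma adjusted p = 0.0623). Replicate 3 of the double knockdown stood apart. It held the highest remaining *Yap1* and *Wwtr1* of its group, and its read counts differed from those of replicates 1 and 2 with a chi-square per gene of 120 and 124, against 19.6 to 49.2 for every other pair within a group. Its summed level over 10 macrophage marker genes was 31683 normalized counts, against 5070 and 9545 in replicates 1 and 2 and 14450 to 20829 with negative siRNA. For the double knockdown, values without that library are therefore given below for the calls it changed, for some further genes and for the counts of each list of related genes.

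Fibroblast markers were abundant in every library (sum over 10 genes 2263074 to 3032001), and no marker of cardiomyocytes, macrophages, endothelial cells or mural cells that was in the table was at 0 throughout a group. Single markers nevertheless changed in the double knockdown, where 32.8% of all genes tested were called. Of the 10 fibroblast markers 7 were called, with *Pdgfra* (log2 1.76), *Dcn* (2.01), *Lum* (1.47) and *Postn* (0.72) higher and *Tcf21* (-0.42), *Col1a2* (-0.43) and *Vim* (-0.74) lower, and the same 7 were called without replicate 3. *Lum* was then at a log2 difference of 0.91 (adjusted p = 0.0357), and replicate 3 held 27679 normalized counts of it, against 9037 and 8338 in replicates 1 and 2. Of 9 cardiomyocyte markers 2 rose, the alpha myosin heavy chain gene *Myh6* and the troponin gene *Tnni3* (log2 1.12, adjusted p = 0.0268). *Myh6* was at 9496, 9986 and 4616 normalized counts with negative siRNA and at 26279, 29002 and 25636 with both (log2 1.83, adjusted p = 0.00206). Without replicate 3 the call of *Myh6* held (1.86, adjusted p = 0.00407), and the difference of *Tnni3* was close to that with all libraries but no longer passed (1.06, adjusted p = 0.0551). The cardiomyocyte sum over 9 genes overlapped, at 42562 to 75024 with negative siRNA and 69690 to 93840 with both. Of 10 endothelial markers 4 rose (*Cdh5*, *Kdr*, *Tek* and *Vwf*), and without replicate 3 *Kdr* and *Tek* passed while *Cdh5* (0.93 against 1.30 with all libraries, adjusted p = 0.0758) and *Vwf* (0.52 against 0.67, adjusted p = 0.0646) did not. Of 8 mural markers (smooth muscle and pericytes) *Rgs5*, *Kcnj8* and *Abcc9* rose and *Mcam* and *Notch3* fell, and without replicate 3 *Myh11* also passed (0.71, adjusted p = 0.0148).

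Of 10 macrophage markers 0 passed in the double knockdown with limma, edgeR or DESeq2, and 1 had an unadjusted p under 0.05 with limma. Without replicate 3, 9 of the 10 fell, by log2 differences of -2.83 (*C1qb*) to -0.86 (*Cd14*), and the median log2 difference was -1.54, against -0.77 with it. *C1qb*, a complement gene of macrophages, was at 1277, 898 and 1052 normalized counts with negative siRNA and at 97.5, 227 and 1504 with both. The macrophage sum was also below every negative siRNA library with Wwtr1 siRNA, at 8664 to 13030, and was 12687 to 19318 with Yap siRNA, with no marker called in either. The mural sum was 29741 to 42500 with Yap siRNA and 26429 to 45589 with both, against 45429 to 63584 with negative siRNA. The endothelial sum was 3702 to 4147 with Yap siRNA, 5645 to 6082 with Wwtr1 siRNA and 4223 to 5159 with both, against 4508 to 5035. In the single knockdowns *Postn* rose and *Notch3* fell with Yap siRNA, *Tek* rose with Wwtr1 siRNA, and no other marker passed with limma. The part of these other cells in the results was not tested, and in bulk RNA fewer cells of a type and less RNA per cell cannot be told apart.

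Loss of both factors lowered most of these genes and raised a pair of them. In the double knockdown against negative siRNA, 6 of the 10 genes fell (*Lox*, *Loxl1*, *Plod2*, *Plod3*, *P4ha1* and *P4ha2*) and 2 rose (*Loxl3* and *Plod1*) at an adjusted p under 0.05 (limma on log2(normalized count + 1), Benjamini-Hochberg over all genes tested, two-sided). Of all genes tested, 32.8% were called in this comparison, 17.1% higher and 15.6% lower. The median log2 difference of the 10 genes was -0.40, against 0.0035 over all genes tested. In 7 of the 10 genes the double knockdown and negative siRNA libraries did not overlap, as in 44.6% of all genes tested. Without replicate 3 of the double knockdown, 7 of the 8 calls held and that of *Plod3* did not (log2 difference -0.23, adjusted p = 0.1). The called differences of *Loxl1* (-0.56), *P4ha1* (-0.68), *Plod1* (0.56) and *Plod2* (-0.50) were then close to those with all 12 libraries. The calls of *Loxl3* and *Plod3* were also lost when only the compared groups were fitted or no mean-variance trend was used (highest adjusted p = 0.0943 and 0.0664).

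**Figure D1:**
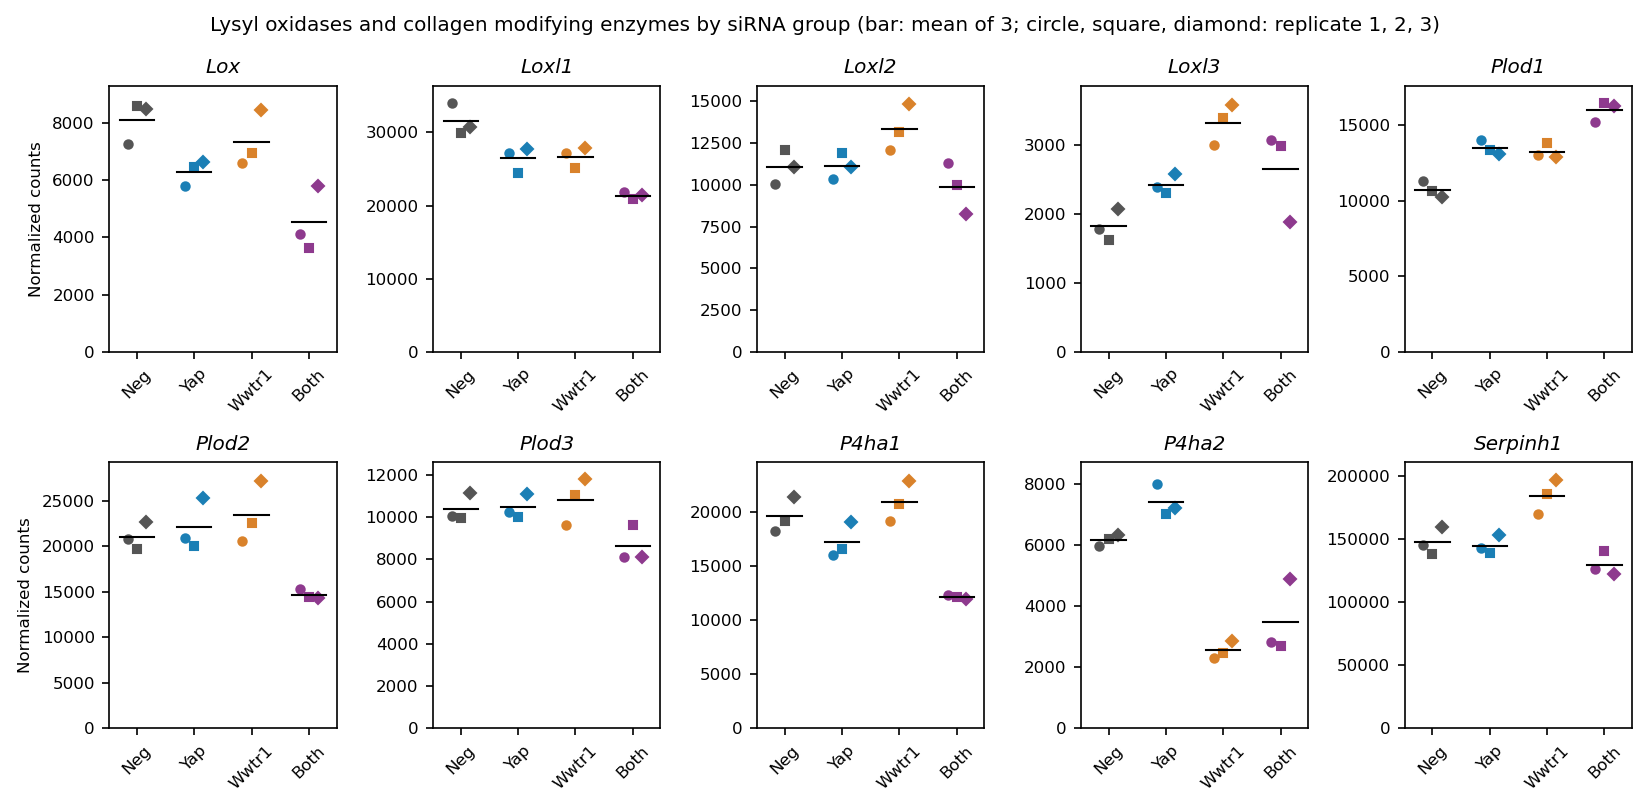
Normalized counts (vertical axes from 0) of the 10 genes in each of 12 libraries, by siRNA group, with circles, squares and diamonds for replicates 1, 2 and 3 and a bar at the mean of 3. With both siRNAs the P4ha1 libraries sit between 11926 and 12304, below the 18254 to 21328 of negative siRNA, whereas Plod1 rises to between 15240 and 16445, and the diamond of the double knockdown lies away from its group in Lox, Loxl3 and P4ha2.

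Promoter sequence was read for 8 of the 10 genes from RefSeq's table for build GRCr8, as the 250 bases before the annotated start. The reads were aligned to another build, rn6, so the coordinates below apply to GRCr8 alone. Yap and Wwtr1 act on DNA through TEAD factors, so the TEAD motif GGAATG was searched for on both strands. It began 186 bases before the start in *Loxl1*, where it is on the other strand and so appears as its reverse complement, and 50 bases before the start in *Loxl3*. The other 6 promoters did not hold it, and 12.1% of 33469 promoters of the same length did. The pair is shown because both carry the motif while *Loxl1* was lower and *Loxl3* higher in the double knockdown, with the motif in capitals.
Loxl1, chr8:67612225-67612474, minus strand: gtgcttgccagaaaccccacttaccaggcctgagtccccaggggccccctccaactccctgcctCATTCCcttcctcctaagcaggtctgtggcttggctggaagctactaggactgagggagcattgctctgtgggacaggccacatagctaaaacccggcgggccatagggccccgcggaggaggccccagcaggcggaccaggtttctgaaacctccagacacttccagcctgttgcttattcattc
Loxl3, chr4:117098108-117098357, plus strand: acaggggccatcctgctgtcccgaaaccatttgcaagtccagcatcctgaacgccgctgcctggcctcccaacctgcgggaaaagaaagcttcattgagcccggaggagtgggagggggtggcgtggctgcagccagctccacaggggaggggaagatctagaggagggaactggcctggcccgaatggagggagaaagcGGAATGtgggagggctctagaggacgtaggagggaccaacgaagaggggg
The hypoxia response element core ACGTG, searched on both strands, was in *P4ha2* and *Plod2*, which belong to the classical targets of hypoxia-inducible factor, and in 16.6% of all promoters. The other promoters searched did not hold the core, among them that of *P4ha1*, which is usually counted to the same targets. The core lay 133 and 41 bases before the start in *P4ha2*, and 178 and 133 bases before it on the other strand in *Plod2*. These are shown because the genes fell together in the double knockdown but differed with Wwtr1 siRNA alone, again with the motif in capitals.
P4ha2, chr10:38743644-38743893, plus strand: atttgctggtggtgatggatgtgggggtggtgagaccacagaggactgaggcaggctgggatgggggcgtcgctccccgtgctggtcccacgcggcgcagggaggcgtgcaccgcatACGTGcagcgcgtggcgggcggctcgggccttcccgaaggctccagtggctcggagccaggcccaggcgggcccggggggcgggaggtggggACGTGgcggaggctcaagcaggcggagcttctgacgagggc
Plod2, chr8:101964068-101964317, plus strand: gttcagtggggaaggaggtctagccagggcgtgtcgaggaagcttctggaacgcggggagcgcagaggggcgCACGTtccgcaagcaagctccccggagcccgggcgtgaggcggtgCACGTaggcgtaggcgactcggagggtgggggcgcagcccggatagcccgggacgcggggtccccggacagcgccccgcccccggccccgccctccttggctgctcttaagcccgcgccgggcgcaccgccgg
The AP-1 motif TGAGTCA, searched on both strands, was in 0 of the 8 promoters and in 4.05% of all promoters. A match to so short a motif describes the letters of the window and does not show that a factor binds there.

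Of the lysyl oxidases, *Lox*, the founding member that cross-links collagen and elastin, fell most. It was at 7258, 8584 and 8456 normalized counts with negative siRNA (8099 ± 731, SD, n = 3), at 5779, 6448 and 6625 with Yap siRNA (6284 ± 446), at 6574, 6943 and 8426 with Wwtr1 siRNA (7314 ± 980), and at 4125, 3621 and 5803 with both (4516 ± 1142). The double knockdown libraries lay below every negative siRNA library, with replicate 3 the highest of them. The mean was 55.8% of that with negative siRNA, a log2 difference of -0.87 (SE 0.15, adjusted p = 0.00126), and the difference was -1.06 without replicate 3 (adjusted p = 7.9e-05). It was also below Wwtr1 siRNA alone (-0.72, SE 0.15, adjusted p = 0.00737). Against Yap siRNA alone the difference was -0.50 (adjusted p = 0.048), a call that was lost when any library was left out other than Wwtr1 siRNA replicate 3 or double knockdown replicate 3 (log2 -0.56 to -0.36 where it was lost, highest adjusted p = 0.157). With Yap siRNA alone every *Lox* value lay below those with negative siRNA (log2 -0.36, 95% confidence interval -0.70 to -0.031), which did not pass in the fit of 12 libraries (adjusted p = 0.211) and passed in a fit of the 9 libraries outside the double knockdown with the replicate number as a block (adjusted p = 0.00332). The Wwtr1 siRNA values overlapped those with negative siRNA (log2 -0.15, adjusted p = 0.599).

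*Loxl1*, which is needed for elastic fibre maintenance, fell in graded steps. It was at 33955, 29937 and 30720 normalized counts with negative siRNA (31537 ± 2130), at 27160, 24438 and 27754 with Yap siRNA (26450 ± 1768), at 27159, 25090 and 27834 with Wwtr1 siRNA (26694 ± 1430), and at 21828, 20832 and 21450 with both (21370 ± 503). Each single knockdown lay below negative siRNA without overlap, and the double knockdown lay below both. The double knockdown mean was 67.8% of the negative siRNA mean (log2 -0.56, SE 0.074, adjusted p = 0.000196), and it was lower than with Wwtr1 siRNA (-0.32, adjusted p = 0.0112) and with Yap siRNA (-0.31, adjusted p = 0.0191). The first of these calls was lost without Wwtr1 siRNA replicate 3 (highest adjusted p = 0.0506), and the second without Yap siRNA replicate 1 or 3 or double knockdown replicate 2 (highest adjusted p = 0.0848). The single knockdown differences were -0.25 with Yap siRNA (SE 0.074, adjusted p = 0.0774) and -0.24 with Wwtr1 siRNA (SE 0.074, adjusted p = 0.0671). Neither passed as fitted, and both passed with the replicate number as a block (adjusted p = 0.0322 and 0.0295) and with DESeq2 (adjusted p = 0.0153 and 0.0172).

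*Loxl2*, a scavenger receptor domain lysyl oxidase that acts on fibrillar and basement membrane collagen, was not called against negative siRNA in any knockdown. It was at 10038, 12050 and 11040 normalized counts with negative siRNA (11043 ± 1006), at 10351, 11914 and 11080 with Yap siRNA (11115 ± 782), at 12095, 13164 and 14824 with Wwtr1 siRNA (13361 ± 1375), and at 11286, 10010 and 8265 with both (9854 ± 1517). Only the Wwtr1 siRNA libraries lay clear of those with negative siRNA, all of them above. The log2 differences from negative siRNA were 0.011 with Yap siRNA, 0.27 with Wwtr1 siRNA (adjusted p = 0.178, and 0.0111 with the block in the 9 libraries) and -0.17 with both (95% confidence interval -0.43 to 0.082, adjusted p = 0.283). The last of these was -0.051 without double knockdown replicate 3 (adjusted p = 0.741). The double knockdown was lower than Wwtr1 siRNA alone by a log2 difference of -0.45 (SE 0.12, adjusted p = 0.0197). That call was lost without Wwtr1 siRNA replicate 2 or 3 (highest adjusted p = 0.0861) or without double knockdown replicate 3 (log2 -0.32, adjusted p = 0.0525).

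*Loxl3*, the nearest relative of *Loxl2* in its domains, moved the other way from *Lox* and *Loxl1*. It was at 1780, 1628 and 2077 normalized counts with negative siRNA (1829 ± 228), at 2402, 2307 and 2580 with Yap siRNA (2429 ± 139), at 3008, 3393 and 3582 with Wwtr1 siRNA (3328 ± 292), and at 3086, 2994 and 1886 with both (2655 ± 668). Both single knockdowns lay above negative siRNA without overlap, whereas double knockdown replicate 3 fell back among the negative siRNA values. With Wwtr1 siRNA the mean was 182% of that with negative siRNA (log2 0.87, SE 0.16, adjusted p = 0.00687). With both siRNAs it was 145% (log2 0.51, SE 0.16, adjusted p = 0.0314), and 0.74 on the log2 scale without replicate 3 (adjusted p = 0.000427). This call was lost without negative siRNA replicate 1 or 2 or double knockdown replicate 1 or 2 (highest adjusted p = 0.119, smallest log2 difference 0.38). With Yap siRNA the difference was 0.42 (adjusted p = 0.182), which passed once double knockdown replicate 3 was left out (adjusted p = 0.0273) and with the block in the 9 libraries (adjusted p = 0.00362).

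The 3 lysyl hydroxylases did not move together. *Plod1*, whose enzyme hydroxylates lysines of the collagen helix, was the one gene of the 10 called in every knockdown in the limma fit without a replicate block, whereas *Loxl1* was called in every knockdown too with the block in all 12 libraries and with DESeq2. It was at 11283, 10664 and 10236 normalized counts with negative siRNA (10728 ± 526), at 14036, 13368 and 13097 with Yap siRNA (13500 ± 483), at 12996, 13797 and 12881 with Wwtr1 siRNA (13225 ± 499), and at 15240, 16445 and 16262 with both (15982 ± 650). All knockdown libraries lay above all negative siRNA libraries, and the double knockdown lay above both single ones. The log2 differences from negative siRNA were 0.33 with Yap siRNA (SE 0.062, adjusted p = 0.0138), 0.30 with Wwtr1 siRNA (SE 0.062, adjusted p = 0.0106) and 0.58 with both (SE 0.062, adjusted p = 5.83e-05, 149% of the mean). The double knockdown was higher than Yap siRNA by 0.24 (adjusted p = 0.0239) and than Wwtr1 siRNA by 0.27 (adjusted p = 0.00999). The single knockdown calls were lost without negative siRNA replicate 3, that of Yap siRNA also without Yap siRNA replicate 1 (highest adjusted p = 0.0687), and that of Wwtr1 siRNA also without Wwtr1 siRNA replicate 2 (highest adjusted p = 0.0584). The difference between both siRNAs and Yap siRNA was lost without Yap siRNA replicate 2 or 3 or double knockdown replicate 2 (highest adjusted p = 0.0964).

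*Plod2*, whose enzyme hydroxylates the telopeptide lysines that give the stable cross-links of fibrotic collagen, fell only when both factors were lowered. It was at 20759, 19689 and 22665 normalized counts with negative siRNA (21038 ± 1507), at 20950, 20064 and 25258 with Yap siRNA (22091 ± 2779), at 20530, 22604 and 27164 with Wwtr1 siRNA (23433 ± 3394), and at 15319, 14423 and 14287 with both (14676 ± 561). The double knockdown libraries lay below all 9 others, and the single knockdowns overlapped negative siRNA. The mean with both was 69.8% of that with negative siRNA (log2 -0.52, SE 0.11, adjusted p = 0.00394). It was also lower than with Yap siRNA (-0.58, adjusted p = 0.00567) and with Wwtr1 siRNA (-0.67, adjusted p = 0.00198). The single knockdown differences were 0.066 (95% confidence interval -0.17 to 0.31) and 0.15 (-0.092 to 0.39). Set against *Plod1* in the same library, each gene taken relative to its negative siRNA mean, *Plod2* stood at -0.96, -1.16 and -1.16 on the log2 scale with both siRNAs, against -0.39 to -0.023 with Yap siRNA and -0.31 to 0.11 with Wwtr1 siRNA, a description without a test.

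*Plod3*, whose enzyme also adds sugars to hydroxylysine residues of collagen, was at 10070, 9960 and 11141 normalized counts with negative siRNA (10390 ± 652), at 10254, 10026 and 11099 with Yap siRNA, at 9610, 11050 and 11803 with Wwtr1 siRNA, and at 8102, 9623 and 8116 with both (8613 ± 874). The double knockdown lay just below negative siRNA, and the single knockdowns overlapped it. The double knockdown mean was 82.9% of that with negative siRNA (log2 -0.27, SE 0.093, adjusted p = 0.0408). The call was lost without any 1 of 7 libraries (each negative siRNA library, Yap siRNA replicate 1, Wwtr1 siRNA replicate 2, and double knockdown replicates 1 and 3), with a highest adjusted p of 0.149. Against Wwtr1 siRNA the difference was -0.33 (adjusted p = 0.0281), lost without Wwtr1 siRNA replicate 2 or 3 or double knockdown replicate 1 or 3 (highest adjusted p = 0.115, and -0.29 with an adjusted p of 0.071 without double knockdown replicate 3). Against Yap siRNA it was -0.28 (adjusted p = 0.0638), which passed with the replicate block (adjusted p = 0.044).

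**Figure D2:**
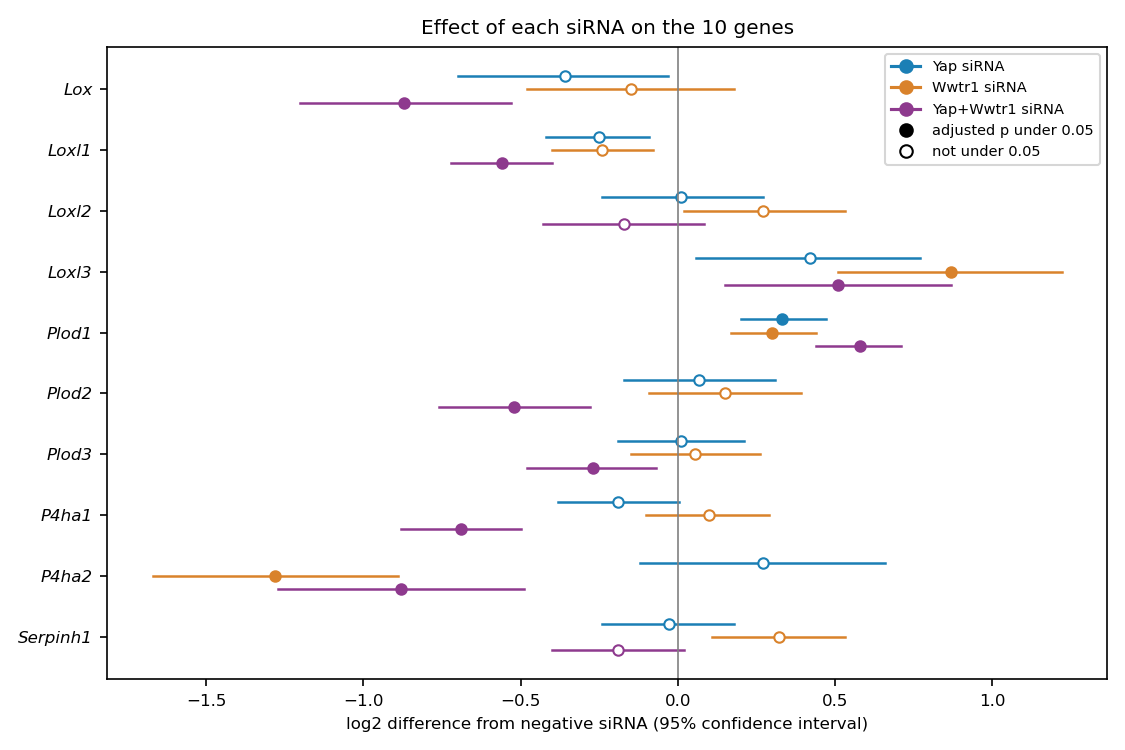
Log2 differences from negative siRNA (horizontal axis) of the 10 genes with 95% confidence intervals, in blue for Yap siRNA, orange for Wwtr1 siRNA and purple for both, filled where the adjusted p was under 0.05. P4ha2 fell with Wwtr1 siRNA (-1.28) and with both (-0.88) and was not called with Yap siRNA (0.27), and Plod1 is filled in all 3 comparisons.

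The prolyl 4-hydroxylase alpha subunits, alternative catalytic partners of the shared beta subunit, had different patterns over the groups. *P4ha1*, the more widely used of them, was at 18254, 19168 and 21328 normalized counts with negative siRNA (19584 ± 1579), at 16056, 16565 and 19045 with Yap siRNA (17222 ± 1599), at 19178, 20764 and 22844 with Wwtr1 siRNA (20929 ± 1839), and at 12304, 12125 and 11926 with both (12118 ± 189). The double knockdown values were tightly grouped and lay below all 9 other libraries. The mean with both was 61.9% of that with negative siRNA (log2 -0.69, SE 0.087, adjusted p = 0.000148), with differences of -0.50 from Yap siRNA (adjusted p = 0.00347) and -0.78 from Wwtr1 siRNA (adjusted p = 0.00023). The single knockdowns differed from negative siRNA by -0.19 with Yap siRNA (adjusted p = 0.264, and 0.0199 with the block in the 9 libraries) and 0.10 with Wwtr1 siRNA (adjusted p = 0.556).

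*P4ha2* fell with Wwtr1 siRNA. It was at 5959, 6198 and 6324 normalized counts with negative siRNA (6161 ± 186), at 8011, 7036 and 7205 with Yap siRNA (7417 ± 521), at 2310, 2477 and 2878 with Wwtr1 siRNA (2555 ± 292), and at 2829, 2708 and 4890 with both (3476 ± 1227). All Yap siRNA libraries lay above negative siRNA and all Wwtr1 siRNA libraries far below it, and in the double knockdown replicates 1 and 2 lay within the Wwtr1 range while replicate 3 lay between it and negative siRNA. The Wwtr1 siRNA mean was 41.5% of that with negative siRNA (log2 -1.28, SE 0.18, adjusted p = 0.00147), the widest difference from negative siRNA among the 10 genes. With both siRNAs it was 56.4% (log2 -0.88, SE 0.18, adjusted p = 0.00297), and -1.15 on the log2 scale without replicate 3 (adjusted p = 1.51e-05). With Yap siRNA the difference was 0.27 (95% confidence interval -0.12 to 0.66, adjusted p = 0.455), which passed with the block in the 9 libraries (adjusted p = 0.0447). Directly compared, *P4ha2* was at 290% of its Wwtr1 siRNA mean with Yap siRNA (log2 1.54, SE 0.18, adjusted p = 0.000767). The double knockdown was below Yap siRNA (-1.15, adjusted p = 0.00202) and was not called against Wwtr1 siRNA (0.40, adjusted p = 0.142, and 0.12 without replicate 3). Taken against *P4ha1* in the same library, each relative to its negative siRNA mean, *P4ha2* stood at -1.39, -1.40 and -1.32 on the log2 scale with Wwtr1 siRNA, at 0.66, 0.43 and 0.26 with Yap siRNA, and at -0.45, -0.50 and 0.38 with both. The ratio of *P4ha2* to *P4ha1* was thus above its negative siRNA mean in each Yap siRNA library and below it in each Wwtr1 siRNA library, a description without a test.

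*Serpinh1*, the HSP47 gene, was higher with Wwtr1 siRNA than with either Yap siRNA or both siRNAs. It was at 145303, 138332 and 159830 normalized counts with negative siRNA (147822 ± 10968), at 142738, 139018 and 153039 with Yap siRNA (144932 ± 7263), at 170183, 185771 and 196971 with Wwtr1 siRNA (184308 ± 13454), and at 126005, 140414 and 122084 with both (129501 ± 9652). The Wwtr1 siRNA libraries lay above all 9 others, and the double knockdown overlapped negative siRNA. The double knockdown was lower than Wwtr1 siRNA by a log2 difference of -0.51 (SE 0.10, adjusted p = 0.00404) and differed from negative siRNA by -0.19 (95% confidence interval -0.40 to 0.02, adjusted p = 0.152). Against negative siRNA, the Wwtr1 siRNA difference was 0.32 (SE 0.10, adjusted p = 0.0634). It passed in separate fits without double knockdown replicate 3 (adjusted p = 0.0458), with the block in the 9 libraries (adjusted p = 0.00406), with edgeR (adjusted p = 0.0438) and with DESeq2 (adjusted p = 0.0038). It did not pass with the block in all 12 libraries (adjusted p = 0.0593). With Yap siRNA it was lower than with Wwtr1 siRNA (log2 -0.35, SE 0.10, adjusted p = 0.0462), a call that was lost when any library was left out other than double knockdown replicates 2 or 3 (log2 -0.40 to -0.30, highest adjusted p = 0.149).

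Counted by comparison, the single knockdowns called fewer of the 10 genes than the double knockdown in the limma fit of 12 libraries without a block. With Yap siRNA 1 of 10 was called (*Plod1*), against 4.80% of all genes tested, and 5 of 10 did not overlap negative siRNA, against 26.1% of all genes. With Wwtr1 siRNA 3 of 10 were called, *Loxl3* and *Plod1* higher and *P4ha2* lower, against 8.96% of all genes, and 6 of 10 did not overlap, against 32.7%. Between the single knockdowns 2 were called (*P4ha2* higher and *Serpinh1* lower with Yap siRNA), against 8.79%, and *Loxl3* also passed without double knockdown replicate 3 (-0.45, adjusted p = 0.0127). With the replicate block in the 9 libraries, 6 genes were called in each of these 3 comparisons, against 16.0%, 21.3% and 22.6% of all genes. Between the single knockdowns that block added *Lox* (log2 -0.21, adjusted p = 0.033), *Loxl2* (-0.26, 0.0134), *Loxl3* (-0.45, 0.00181) and *P4ha1* (-0.28, 0.00203), all lower with Yap siRNA, and *P4ha1* also passed with the block in all 12 libraries (0.0282). The double knockdown differed from Yap siRNA in 6 genes (13.8% of all genes) and from Wwtr1 siRNA in 8 (19.9%), and in both comparisons *Plod1* alone was higher. Without double knockdown replicate 3 the 6 calls held, and of the 8 those of *Loxl2* and *Plod3* did not, at log2 differences of -0.32 and -0.29 against -0.45 and -0.33 with all libraries. These comparisons share libraries, so their counts are not independent of each other.

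Whether the effect of both siRNAs differed from the sum of each was asked with an interaction term, the double knockdown effect minus both single effects on the log2 scale. Remaining *Yap1* and *Wwtr1* were higher in the double than in the single knockdowns (log2 0.67 and 0.59, limma adjusted p = 0.0623 and 0.00804). The term therefore does not compare equal losses, and the part of this in its values was not tested. *P4ha1* passed: its single effects summed to -0.091, and the double knockdown effect was -0.69, an interaction of -0.60 (SE 0.12, 95% confidence interval -0.87 to -0.33, adjusted p = 0.0455). It was the one gene of the 10 called, against 1.03% of all genes tested. The call was lost when any library was left out other than negative siRNA replicate 3 or Yap siRNA replicate 1 (log2 -0.66 to -0.52, highest adjusted p = 0.113, and 0.0582 without double knockdown replicate 3), and with edgeR or without a mean-variance trend (highest adjusted p = 0.0951). *Plod2* had an interaction of -0.73 (SE 0.16, 95% confidence interval -1.07 to -0.39) with an adjusted p of 0.0502, and 0.0219 with the replicate block, where 1.95% of all genes were called. Of the 10 genes, 9 lay below the sum of their single effects, against 48.7% of all genes tested, and 6 had an unadjusted p under 0.05 (*Loxl2*, *Loxl3*, *Plod2*, *Plod3*, *P4ha1* and *Serpinh1*), against 14% of all genes. Below the sum did not always mean a larger fall. *Loxl3* and *Plod1* rose less than the sum (0.51 against 1.28 and 0.58 against 0.63). *Loxl2* and *Serpinh1* were not called in the double knockdown against negative siRNA (-0.17 and -0.19).

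For further genes the double effect is set beside the single ones, without a called interaction in the limma fit of 12 libraries. *Plod1* and *Loxl1* lay near the sum, with interactions of -0.059 (95% confidence interval -0.25 to 0.13) and -0.066 (-0.29 to 0.16). *Loxl3* had single effects that summed to 1.28 and a double effect of 0.51 (interaction -0.77, adjusted p = 0.141). For *Lox* the interaction was -0.35 (95% confidence interval -0.82 to 0.12), and leaving out a double knockdown library moved it to -0.21 (replicate 2) or -0.55 (replicate 3). *P4ha2* was the one gene above the sum (0.13, -0.42 to 0.68), where the value turned to -0.14 without double knockdown replicate 3.

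**Figure D3:**
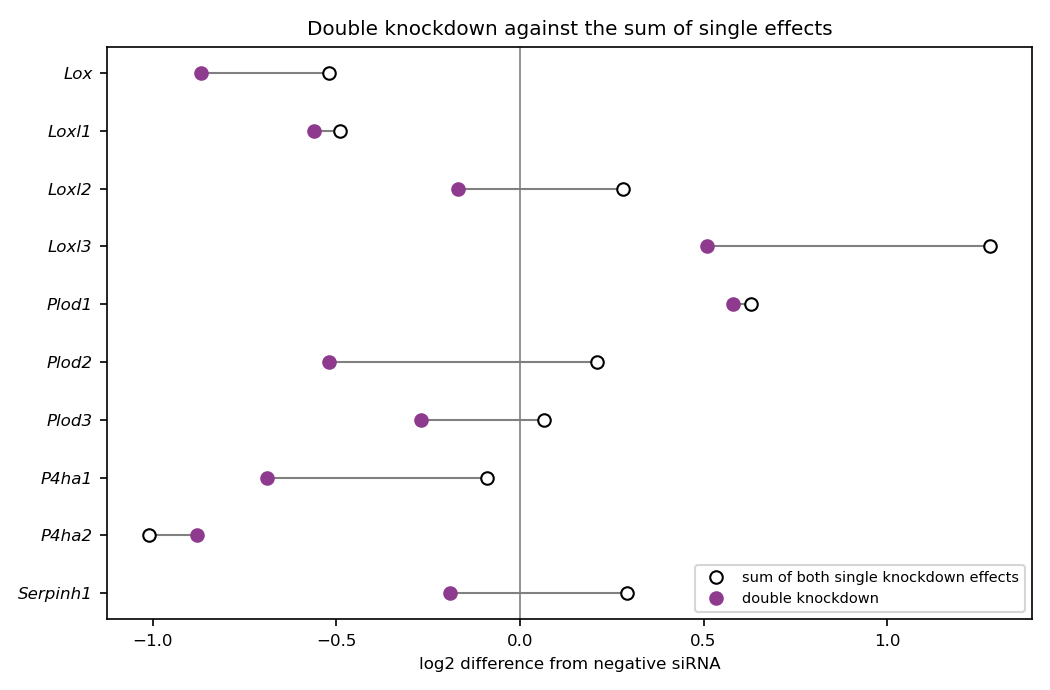
For each of the 10 genes, the sum of both single knockdown effects (open circle) and the double knockdown effect (purple), as log2 differences from negative siRNA on the horizontal axis. The purple point lies left of the open one in 9 genes, farthest in Loxl3 (0.51 against 1.28) and Plod2 (-0.52 against 0.21), and the points lie close together in Plod1 and Loxl1.

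Genes related to these enzymes are given by list, each beside the share of all genes called in that comparison. Of 14 other collagen folding and hydroxylation genes tested, 3 rose in the double knockdown (*P3h3*, *Fkbp10* and *Creb3l1*), 1 fell (*P4ha3*) and 10 were not called, which is 28.6% called, against 32.8% of all genes, with a median log2 difference of 0.056. Without double knockdown replicate 3 the 4 calls held, *P3h1* (0.22, adjusted p = 0.0382) and *P3h2* (0.80, adjusted p = 0.0252) also passed, and the median was 0.10. *P3h3*, a prolyl 3-hydroxylase family member, was at 6331, 5708 and 5777 normalized counts with negative siRNA and at 8095, 7815 and 7396 with both (log2 0.39, SE 0.064, adjusted p = 0.000866). *Fkbp10*, a collagen prolyl isomerase, rose by 0.33 (SE 0.069, adjusted p = 0.00341), and *Creb3l1*, a transcription factor of secretory collagen genes, by 0.51 (SE 0.12, adjusted p = 0.00788). *P4ha3*, which encodes the remaining prolyl 4-hydroxylase alpha subunit, was at 3509, 3452 and 3739 with negative siRNA and at 2773, 2678 and 2356 with both, a log2 difference of -0.46 (SE 0.08, adjusted p = 0.00118). The genes for the subunits *P4ha1*, *P4ha2* and *P4ha3* were therefore all lower in the double knockdown, while that for the shared beta subunit, *P4hb*, differed by 0.056 (adjusted p = 0.597, and -0.0092 without replicate 3). With single knockdowns, 4 genes of the list rose and 1 fell with Yap siRNA, and 5 rose with Wwtr1 siRNA. That is 35.7% of the list in each, against 4.80% and 8.96% of all genes tested.

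Of 12 procollagen export and processing genes tested, 1 rose and 1 fell with both siRNAs in limma, 16.7% against 32.8% of all genes. With edgeR 2 of the 12 were called, beside 3864 of 11871 genes tested. With DESeq2 4 were called, beside 4205 of 11871, so the lower share of the list was not seen with every tool. *Furin*, a proprotein convertase, was at 9741, 8642 and 9851 normalized counts with negative siRNA and at 15480, 16714 and 13948 with both, without overlap (log2 0.71, SE 0.082, adjusted p = 8.87e-05, and 0.78 without replicate 3). *Klhl12*, an adaptor for the ubiquitin ligase that enlarges procollagen carriers, was lower by a log2 difference of -0.50 (SE 0.17, adjusted p = 0.0445), a call lost without replicate 3 (-0.46, adjusted p = 0.0926). *Adamts14* and *Adamts3*, which encode procollagen N-proteinases, differed by 0.41 (adjusted p = 0.064) and 0.76 (adjusted p = 0.1) and were not called with limma. The difference of *Adamts3* was 0.42 without replicate 3, which held 915 normalized counts against 558 and 361 in the others. With Yap siRNA 0 of the 12 were called by limma, edgeR or DESeq2 and 2 had an unadjusted p under 0.05 with limma, against 4.80% of all genes called. With Wwtr1 siRNA 1, *Adamts14*, was called higher (0.68, adjusted p = 0.0182), against 8.96%.

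Of 11 genes that load lysyl oxidases with copper, place them on the matrix or belong to their family, 3 rose with both siRNAs (*Loxl4*, *Slc31a1* and *Postn*) and 2 fell (*Fbln5* and *Thbs1*), 45.5% against 32.8% of all genes. The same 5 were called without replicate 3. *Loxl4*, the remaining lysyl oxidase, was at 140, 222 and 156 normalized counts with negative siRNA, at 197, 197 and 215 with Yap siRNA, at 405, 344 and 472 with Wwtr1 siRNA, and at 257, 307 and 287 with both. It rose by a log2 difference of 1.25 with Wwtr1 siRNA (SE 0.18, adjusted p = 0.00171) and 0.74 with both (SE 0.18, adjusted p = 0.00858), and in each of these comparisons *Loxl3* was also called higher. *Fbln5*, whose protein binds LOXL1 on elastic fibres, was lower with both (log2 -0.96, SE 0.17, adjusted p = 0.00141). *Thbs1*, the gene for thrombospondin 1, was at 86489, 99777 and 83190 with negative siRNA and at 47679, 49987 and 31910 with both, a log2 difference of -1.08 (SE 0.17, adjusted p = 0.000563).

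The fibrillar collagens and elastin are the substrates of these enzymes. Of 9 fibrillar collagen and elastin genes tested, 3 fell with both siRNAs (*Col1a2*, *Col5a2* and *Col11a1*), 1 rose (*Col5a3*) and 5 were not called, 44.4% called against 32.8% of all genes, with a median of -0.24. Without replicate 3 these calls held, *Eln* also passed (-1.71, adjusted p = 0.00186), and the median was -0.39. *Col11a1*, a minor fibrillar chain, was at 6089, 4453 and 4079 normalized counts with negative siRNA and at 992, 959 and 1816 with both (log2 -2.00, SE 0.24, adjusted p = 0.000101, and -2.30 without replicate 3). Of 10 hypoxia-inducible genes tested, a group to which *P4ha1*, *P4ha2* and *Plod2* are usually counted, 3 rose (*Egln3*, *Bnip3* and *Slc2a1*), 2 fell (*Adm* and *Pgk1*) and 5 were not called, 50% called against 32.8% of all genes, with a median of 0.13. Without replicate 3 *Bnip3* was at 0.26, against 0.33 with all libraries, and no longer passed (adjusted p = 0.0773). *Egln3*, a prolyl hydroxylase that acts on hypoxia-inducible factor, rose from 268, 338 and 186 to 895, 983 and 682 normalized counts (log2 1.71, SE 0.29, adjusted p = 0.00106). The hydroxylases *P4ha1*, *P4ha2* and *Plod2* were lower in the same comparison. The median over all genes tested was 0.0035.

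**Figure D4:**
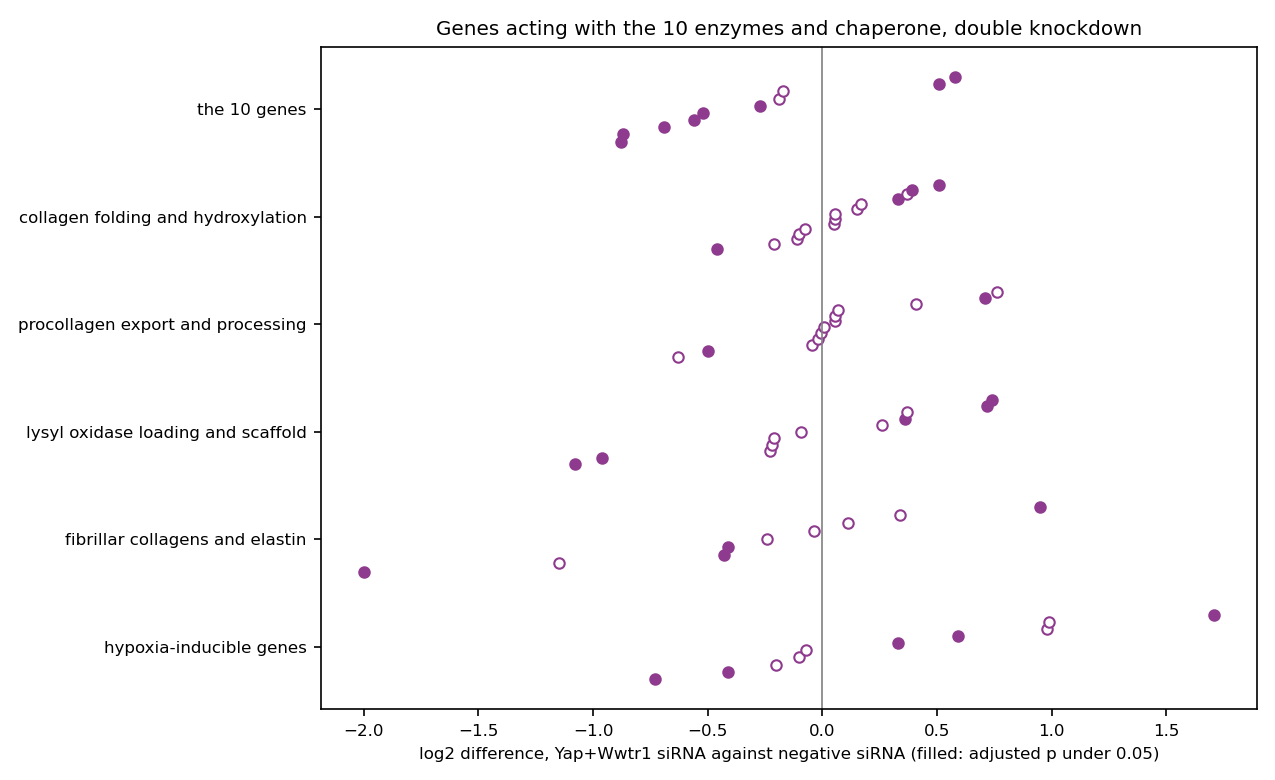
Log2 difference between the double knockdown and negative siRNA (horizontal axis), 1 point per gene, for the 10 genes and 5 lists of related genes (the hypoxia-inducible list is not of genes that act with them), filled where the adjusted p was under 0.05. The 10 genes have a median of -0.40, the other lists hold filled points on both sides of 0, and Col11a1 (-2.00) and Egln3 (1.71) lie at the ends.

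The genes whose levels followed each member most closely were found by the root mean square difference of centred log2 values over 12 libraries, among 10101 genes whose mean was at least 100 normalized counts. For *Plod2* they were *Tpm4* (0.082), *Cavin1* (0.10) and *P4ha1* (0.11), so that another of the 10 genes was among the nearest, while the gene's own root mean square deviation was 0.29. For *P4ha1* they were *Aldh18a1* (0.071), *Wsb2* (0.073) and *Iars1* (0.079), against an own deviation of 0.32. *P4ha2*, with an own deviation of 0.66, lay nearest to *Chid1* (0.17), *Ufc1* (0.22) and *Eif4ebp2* (0.28). For *Lox* they were *Marcks* (0.11), *Pea15* (0.13) and *Septin11* (0.13), and for *Loxl3* they were *Ntn4*, *Pofut2* and *Olfm1* (0.15 each), against own deviations of 0.37 and 0.36. *Loxl1*, *Plod1* and *Plod3* lay nearest to *Pear1* (0.062), *Bap1* (0.061) and *Znrd2* (0.058), with own deviations of 0.21, 0.21 and 0.16. These are descriptions of shared level patterns over the same libraries.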

How the data were processed

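RNA was sequenced from 12 libraries, whose titles gave the group and the replicate number. The authors trimmed the reads with Trim Galore 0.6.5, aligned them to rat genome rn6 with HISAT2, assembled transcripts with StringTie2 and normalized with DESeq2. The annotation and strand setting are not given in the sources used here. The deposited signal values are gene counts divided by 1 size factor per library. All of them (100% of 147252, tolerance 0.001) were whole multiples of a step in each library, which gave recovered totals of 33.9 to 41.1 M. These lie above the depth stated by the study, so a unit may not be a single read. Deposited columns of the authors' own fold changes and p-values were not used.

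The 10 genes were matched by symbol. limma 3.58.1 in R 4.3.3 was fitted to log2(normalized count + 1) of all 12 libraries without covariates, with eBayes and a mean-variance trend, and differences are on that scale. Genes whose mean was at least 10 normalized counts entered the tests (11871), with Benjamini-Hochberg adjustment over all of them, a threshold of 0.05 and two-sided tests. Confidence intervals are 95%. The limma steps were tested on simulated data. Promoters came from RefSeq's GRCr8 table, where 8 of the 10 genes matched. *Lox* and *Loxl2* did not. Transcript lengths were not used, so levels are not compared between genes.

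The members and the gene lists were chosen with earlier results of these data known. From each list, the text names genes called in the double knockdown with an absolute log2 difference over 1, otherwise up to 4 genes of lowest adjusted p. *Loxl4*, *Fbln5* and *P4hb* and the other genes given behind list and marker counts were added after their values were seen. For each gene called in the double knockdown, the 3 nearest genes by level pattern were named, in part for some.

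Same-numbered libraries deviated from their group means together among negative, Yap and Wwtr1 siRNA (9 correlations of 0.104 to 0.276 over all genes tested), and the study used separate litters, so the numbers were taken to pair these groups. For double knockdown libraries the 9 correlations were -0.127 to 0.18, so that group was taken to share a number only. Alternatives were pseudocounts of 0.1 and 10, no filter and a mean of at least 100, TMM scaling, edgeR 4.0.16 and DESeq2 1.42.0 on recovered reads, only the groups compared, a replicate block with and without the double knockdown, no trend, and leaving out each library. The counts over gene lists without double knockdown replicate 3 were chosen after seeing the data.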

Additional observations from a re-analysis of the deposited data

Results flagged for a closer look

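The interaction of *P4ha1* was -0.60 on the log2 scale, picked out because the double knockdown effect differed from the sum of the single effects at an adjusted p under 0.05 in limma (0.0455). The effects of Yap siRNA and Wwtr1 siRNA on *P4ha2* differed by 1.54 on the log2 scale, and those on *Serpinh1* by -0.35. Both were picked out because the direct test between the single knockdowns passed (adjusted p = 0.000767 and 0.0462). The *P4ha2* difference was past the threshold in every alternative and with every library left out, and the other pair of calls was lost when most single libraries were left out.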

How the results depend on the processing

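Counts of called genes among the 10 that moved by over 1.5 times are given first. Between Yap and Wwtr1 siRNA the 2 calls became 1 with a pseudocount of 10 and without a filter, 4 with DESeq2 and 6 with the replicate block without the double knockdown. For the interaction the 1 call became 2 with a pseudocount of 10, with a mean of at least 100, with TMM scaling and with the replicate block, 0 with edgeR and with no trend, and 4 with DESeq2. Of all 11871 genes, the interaction was called in 122 in the main fit, 151 with a pseudocount of 10, 131 with TMM scaling and 231 with the block. It was called in 102 with edgeR, 60 with no trend and 503 with DESeq2, and in 149 of 10102 genes with a mean of at least 100. With Yap siRNA the 1 call became 2 with DESeq2 and with the block, and 6 with the block without the double knockdown. With Wwtr1 siRNA the 3 calls became 5 with DESeq2 and 6 with that block. Of all 11871 genes, DESeq2 called 1013 with Yap siRNA, 1545 with Wwtr1 siRNA and 1542 between the single knockdowns. The main fit called 570, 1064 and 1044, and the block in all 12 libraries called 874 with Yap siRNA. Between the single knockdowns, 1059 were called with a pseudocount of 10 and 1030 of 12271 without a filter. Between the double knockdown and Yap siRNA the 6 calls became 3 when only the compared groups entered the fit, where 774 of all genes were called, against 1637 in the main fit. Beyond the values given beside each gene, the replicate block changed no other call. Of the calls given above, those of *Serpinh1* between the single knockdowns (highest adjusted p = 0.0715) and of *Lox* (0.116), *Loxl1* (0.0688) and *Plod1* (0.094) between both siRNAs and Yap siRNA were lost under at least 1 of these settings, as were those of *Plod3* (0.0781) and *Loxl2* (0.0586) between both and Wwtr1 siRNA. The calls gained with DESeq2 beyond those given beside a gene were *P4ha1* (adjusted p = 0.0245) and *Loxl3* (0.0491) between the single knockdowns, *Plod3* between both and Yap siRNA (0.034), and the interactions of *Serpinh1* (0.00489), *Loxl3* (0.0463) and *Plod2* (0.000693). The cause of these shifts was not tested.

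With each library left out in turn, the counts ran from 0 to 2 (Yap siRNA), 2 to 4 (Wwtr1 siRNA), 6 to 8 (both siRNAs), 1 to 3 (between single knockdowns), 3 to 6 (both against Yap siRNA), 5 to 8 (both against Wwtr1 siRNA) and 0 to 1 (interaction). Directions reversed only among uncalled values. These were Yap siRNA on *Plod3* (-0.033 to 0.061), *Loxl2* (-0.056 to 0.076), *Serpinh1* (-0.074 to 0.031) and *Plod2* (-0.035 to 0.13), Wwtr1 siRNA on *Plod3* (-0.01 to 0.14), Yap against Wwtr1 siRNA on *Loxl1* (-0.058 to 0.042), *Plod3* (-0.13 to 0.02) and *Plod2* (-0.18 to 0.029), both against Yap siRNA on *Loxl3* (-0.031 to 0.32), and the interaction of *P4ha2* (-0.14 to 0.28). Of 720 single-gene values under the other alternatives, 671 kept direction and call, 31 gained a call and 18 lost it. Of 840 with a library left out, the numbers were 759, 6 and 59, and 16 reversed. Among the lists of related genes and cell markers, leaving out double knockdown replicate 3 moved a count of called genes by over 1.5 times in the export list (2 to 1), the cardiomyocyte markers (2 to 1), the macrophage markers (0 to 9) and the endothelial markers (4 to 2).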
